A study of Sus scrofa with 9 samples.

Results

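The table of small RNA counts was read for miR-132 and miR-212, a pair of neighbouring microRNAs (miRNAs), in sperm, MII oocytes and PN embryos of the pig. The members were all names that, without the species prefix and ignoring case, begin with miR-132 or miR-212, and 4 of 1313 names met this rule. Their names were ssc-miR-132, pal-miR-132-5p_L+1R-2, ssc-miR-212 and eca-miR-212_R+1. The prefixes ssc, pal and eca name the species whose reference miRNA was matched (ssc is pig), and the sources used here do not define the suffixes, which are taken here to mark variants of a sequence (isomiRs). The family was chosen by the level of pal-miR-132-5p_L+1R-2, which had already been seen in these libraries to be high in sperm and higher in PN embryos than in MII oocytes. The levels and fold changes of the 4 names are therefore given as a description. Calls from the fit over all names are counted only beside the share of all names called. Other tests of the members were run only on ratios between names, which were not themselves used in the choice. ssc-miR-132, the numerator of the ratio of miR-132 to miR-212, belongs to the same hairpin as the name that chose the family. That ratio is thus not independent of the choice.

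MII oocytes (hereafter oocytes) are unfertilized eggs that wait at metaphase of meiosis II, and PN embryos (hereafter embryos) are zygotes whose parental genomes still lie in separate pronuclei. Each group had 3 libraries, and no library was treated. By the methods of the study, oocytes came from slaughterhouse follicles of Long White gilts over 8 months old. They were matured in vitro in their cumulus cells with gonadotropins, and the cumulus was removed before RNA was taken. PN embryos were made by in vitro fertilization and collected 18 h after it began, with semen of Landrace boars, while the sperm for RNA came from Large White boars. The boars were 2 to 3 years old, and the sequenced sperm and the fertilizing sperm thus came from different breeds. Oocytes and embryos were pooled for RNA, and it was not stated whether the 3 libraries of a group came from separate pools.

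miR-132 and miR-212 are cut from hairpins of a single primary transcript in mammals, and their main mature forms share a seed, the bases near the 5′ end that pair with target mRNAs. In neurons the transcript is induced through the transcription factor CREB. In the ovary, both miRNAs are known to rise in granulosa cells, the somatic cells of the follicle, after stimulation by luteinizing hormone. Each hairpin can give a mature miRNA from its 5′ arm (5p) and from its 3′ arm (3p). Of the 4 names, pal-miR-132-5p_L+1R-2 alone names an arm.

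On the pig assembly Sscrofa11.1, the build in the submitters' processing notes, RefSeq places MIR132 on chromosome 12 from base 48162625 to 48162702. MIR212 lies on the same chromosome from base 48163054 to 48163135. The hairpins are 78 and 82 bases long, and 351 bases separate them. No other RefSeq gene overlaps the stretch of 511 bases that holds both. The nearest genes are OVCA2, which ends 850 bases before MIR132, and HIC1, which encodes a transcriptional repressor and starts 4725 bases after MIR212.

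Sperm libraries held from 1640492 to 2455102 counts, those of embryos from 422630 to 771001 and those of oocytes from 289183 to 381674. Depth thus differed between the groups without overlap, and 1 read was worth from 2.62 to 3.46 CPM in oocytes but from 0.407 to 0.610 CPM in sperm. CPM stands for counts per 1000000 counts of the library. A single name, ssc-miR-205_R+1, took from 45.1% to 49.3% of each oocyte and embryo library. In sperm the most abundant name took at most 10.3%. The CPM of other names in sperm against the other groups therefore depends on whether ssc-miR-205_R+1 is in the totals. All values are shares of a library of bulk RNA, so a lower share of cells that carry a miRNA and less of it per cell cannot be told apart.

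The groups were checked against marker miRNAs. Names of miR-34b, miR-34c and miR-449, which mark male germ cells, summed to between 151499 and 153743 CPM in sperm, and all 11 names were listed there. The 4 names of miR-371 and miR-302, which mark oocytes and early embryos, were at 0 in every sperm library. They summed to between 1106 and 1267 CPM in embryos and to between 1089 and 1286 CPM in oocytes, where ssc-miR-371-5p alone was listed. The male germ cell names were above these sums in both groups, at 2250 to 2455 CPM in embryos and 2036 to 2099 CPM in oocytes. miR-372, miR-373 and miR-367 had no name in the table.

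Together the 4 names were at 655 ± 34.8 CPM in oocytes, 989 ± 35.2 CPM in embryos and 3721 ± 106 CPM in sperm (SD, n = 3 each). The family was thus 1.51 times as high in embryos as in oocytes and 5.68 times as high in sperm. It made up 0.0655% of the counts in oocytes, 0.0989% in embryos and 0.372% in sperm. The libraries of the 3 groups did not overlap for this sum.

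The leading member was ssc-miR-132. Its level was 493, 468 and 443 CPM in oocyte libraries 1, 2 and 3, from at most 188 counts. In embryo libraries 1, 2 and 3 it was 627, 618 and 608 CPM, from 265, 430 and 469 counts. In sperm libraries 1, 2 and 3 it was 2835, 3003 and 2955 CPM, from 4651, 5206 and 7254 counts. In CPM, every embryo library lay above every oocyte library, and every sperm library lay above both. The mean was 468 ± 25.0 CPM in oocytes, 618 ± 9.37 CPM in embryos and 2931 ± 86.5 CPM in sperm (SD, n = 3 each). By mean level ssc-miR-132 ranked 117 among the names listed in oocytes, 99 in embryos and 53 in sperm.

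The 5p name, pal-miR-132-5p_L+1R-2, was less abundant than ssc-miR-132. It had 6, 12 and 0 counts in oocyte libraries 1, 2 and 3, which gave 15.7, 40.1 and 0 CPM. The listed 0 in library 3 still allows up to 10.4 CPM, the worth of 3 counts at that depth (a one-sided limit for counting error only). In embryos it was at 75.7, 92.0 and 76.5 CPM in libraries 1, 2 and 3, from 32, 64 and 59 counts. In sperm it was at 415, 497 and 472 CPM, from 681, 862 and 1159 counts. The groups did not overlap in the order oocytes, embryos, sperm, but the oocyte values rested on 18 counts in all. The means were 18.6 ± 20.2, 81.4 ± 9.20 and 461 ± 42.1 CPM (SD, n = 3 each).

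The 2 names of miR-212 followed different orders. ssc-miR-212 was at 110, 66.8 and 96.8 CPM in oocyte libraries 1, 2 and 3 and at 121, 148 and 126 CPM in embryo libraries 1, 2 and 3. In sperm it was at 75.6, 49.6 and 38.7 CPM. It was therefore highest in embryos, which overlapped neither other group, while oocytes and sperm overlapped. The means were 91.2 ± 22.1 CPM in oocytes, 131.5 ± 14.6 CPM in embryos and 54.6 ± 19.0 CPM in sperm (SD, n = 3 each).

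eca-miR-212_R+1 was instead highest in sperm. It was at 57.6, 40.1 and 135 CPM in oocyte libraries 1, 2 and 3, and at 127.8, 163 and 183 CPM in embryo libraries 1, 2 and 3. In sperm it was at 282, 266 and 273 CPM. The sperm libraries lay above all others, whereas oocyte library 3 reached into the range of embryos. The means were 77.5 ± 50.4, 158 ± 27.9 and 274 ± 7.84 CPM (SD, n = 3 each). In oocytes these values came from 22, 12 and 39 counts.

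With both names summed, miR-212 was at 169 ± 62.4 CPM in oocytes, 289 ± 35.4 CPM in embryos and 328 ± 25.1 CPM in sperm (SD, n = 3 each). The groups did not overlap, although the highest embryo library, at 311 CPM, lay just below the lowest sperm library, at 312 CPM. The difference between the means of embryos and sperm was smaller than the sum of their SDs. In sperm, miR-212 was thus 1.13 times its level in embryos, where ssc-miR-132 was 4.74 times its level in embryos. The order of embryos and sperm for the sum depends on the totals. With totals that left out ssc-miR-205_R+1, the fitted log2 fold change in sperm against embryos was -0.10 for eca-miR-212_R+1 and -2.16 for ssc-miR-212. The median of all names was -2.38 there.

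**Figure D1:**
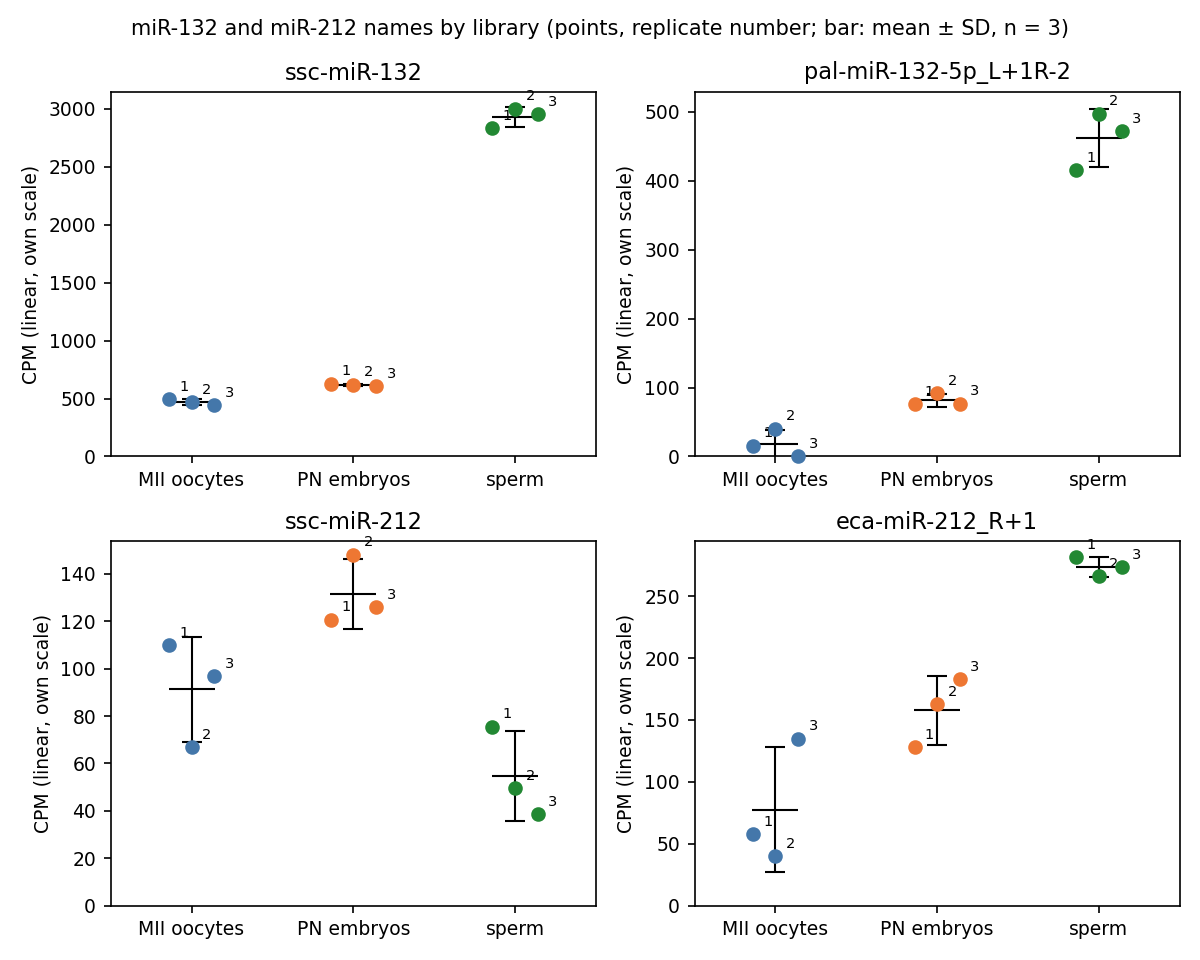
Level in CPM (linear axis from 0, a scale of its own in each panel) of each of the 4 names in MII oocytes, PN embryos and sperm; points are libraries with their replicate number, and bars are mean ± SD (n = 3). ssc-miR-132, pal-miR-132-5p_L+1R-2 and eca-miR-212_R+1 were highest in sperm, at means of 2931, 461 and 274 CPM, and ssc-miR-212 was highest in PN embryos, at 131.5 CPM.

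Fold changes were fitted over all names together with edgeR and its TMM scaling, which corrects library totals for differences in composition. Calls needed a q value (the p-value adjusted over all names tested) below 0.05 and a log2 fold change of 1 or more in either direction. All 4 members passed the filter on low counts. In embryos against oocytes, the log2 fold change was 0.33 ± 0.08 (SE) for ssc-miR-132 and 2.06 ± 0.50 (SE) for pal-miR-132-5p_L+1R-2. It was 0.45 ± 0.28 (SE) for ssc-miR-212 and 1.01 ± 0.33 (SE) for eca-miR-212_R+1. Without oocyte library 2 the value of pal-miR-132-5p_L+1R-2 was 3.10, and without oocyte library 3, which had 0 counts of this name, it was 1.55. All 4 values were above the median of all names tested, which was 0.08. Of the members, 2 were called, both higher in embryos, where 12.9% of 587 names were called, 11.2% higher and 1.7% lower. Nothing is read from this count or from those of the other contrasts, since levels in the same contrasts chose the family. Libraries of these groups did not overlap for 3 of the 4 members and for 39.5% of all names tested. The fold change of eca-miR-212_R+1 lay at the threshold of the call, and the call was lost under most alternatives.

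In sperm against oocytes, the log2 fold change was 2.70 ± 0.07 (SE) for ssc-miR-132 and 4.69 ± 0.38 (SE) for pal-miR-132-5p_L+1R-2. The miR-212 names moved apart, with -0.71 ± 0.28 (SE) for ssc-miR-212 and 1.91 ± 0.30 (SE) for eca-miR-212_R+1. The median of all names was 0. Calls were made for 3 of the 4 members, all higher in sperm, where 83% of all names were called, 42.2% higher and 40.7% lower. Libraries did not overlap for 3 of the 4 members and for 81.6% of all names. With library totals that left out ssc-miR-205_R+1, eca-miR-212_R+1 was at 0.92 and lost its call and ssc-miR-212 was called lower at -1.69, so that 2 members were higher and 1 lower. The values of ssc-miR-132 and pal-miR-132-5p_L+1R-2 were then smaller, at 1.72 and 3.71, against a median of -1.38. That setting, without TMM, tested 537 names. Its calls split into 159 higher and 276 lower, against 248 and 239 of 587 names with TMM. At equal depth ssc-miR-212 was also called lower, at -1.18. Without oocyte library 2 the value of pal-miR-132-5p_L+1R-2 was 5.87, and without oocyte library 3 that of eca-miR-212_R+1 was 2.66.

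In sperm against embryos, the log2 fold change was 2.38 ± 0.07 (SE) for ssc-miR-132 and 2.63 ± 0.26 (SE) for pal-miR-132-5p_L+1R-2, so the 2 names of miR-132 had similar values here. It was -1.16 ± 0.25 (SE) for ssc-miR-212 and 0.90 ± 0.24 (SE) for eca-miR-212_R+1. Here 3 of 4 members were called, 2 higher and 1 lower in sperm, where 86.2% of all names were called, 38.8% higher and 47.4% lower. The lower call, of ssc-miR-212, was lost and eca-miR-212_R+1 was called higher with DESeq2 size factors, with no filter, with the DESeq2 Wald test and without embryo library 3 or sperm library 2, which gave 3 members higher and 0 lower. Libraries did not overlap for any of the 4 members and for 92.2% of all names. The median of all names was -0.52, and relative to it the value was 2.90 for ssc-miR-132, 3.15 for pal-miR-132-5p_L+1R-2, -0.64 for ssc-miR-212 and 1.42 for eca-miR-212_R+1. With library totals that left out ssc-miR-205_R+1, eca-miR-212_R+1 changed sign to -0.10 against a median of -2.38. Relative to that median ssc-miR-212 changed sign as well, to 0.22. The values of ssc-miR-132 and pal-miR-132-5p_L+1R-2 were then smaller, at 1.38 and 1.62. This setting of the totals, without TMM, tested 537 names, over which its median was taken. Its calls split into 156 higher and 309 lower, against 228 and 278 of 587 names with TMM.

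**Figure D2:**
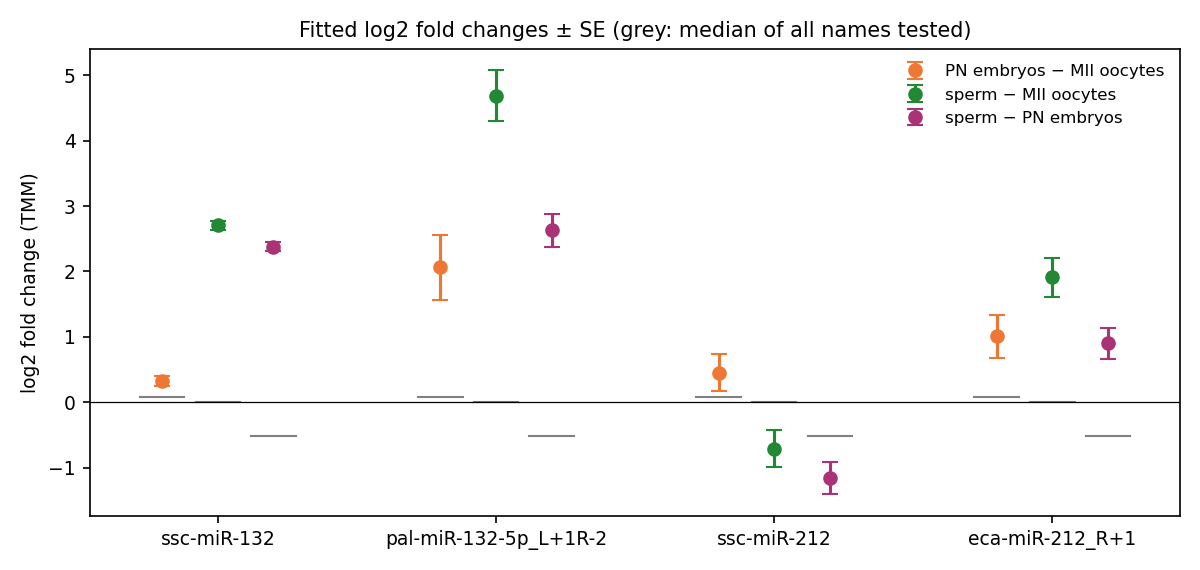
Fitted log2 fold change with its SE for each of the 4 names in the 3 contrasts; grey lines mark the median of all 587 names tested. The miR-132 names lie above 0 in all contrasts, and ssc-miR-212 lies below 0 in both contrasts with sperm, at -0.71 and -1.16.

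A ratio between members of one library does not depend on how libraries are scaled to each other, and it was used to ask whether miR-132 and miR-212 kept a fixed proportion. Adapter ligation favours some small RNAs over others, so only the change of the ratio between groups is read, not its size. The count of ssc-miR-132 was 2.94, 4.38 and 1.91 times that of both miR-212 names in oocyte libraries 1, 2 and 3. It was 2.52, 1.99 and 1.97 times in embryo libraries 1, 2 and 3, and 7.94, 9.52 and 9.47 times in sperm libraries 1, 2 and 3. All sperm libraries lay above all others, and the ranges of oocytes and embryos overlapped.

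On the log2 scale, with 0.5 reads added to each sum, the ratio was 1.53 ± 0.59 in oocytes, 1.10 ± 0.20 in embryos and 3.16 ± 0.15 in sperm (SD, n = 3 each). The 3 groups differed (two-sided exact permutation test over the 9 libraries, p = 0.0143, adjusted p = 0.0143 over the 2 ratios tested). The smallest p this test allows is 0.00357. Since ssc-miR-132 shares its hairpin with the name whose level in sperm chose the family, this p is not independent of that choice. Sperm exceeded oocytes by 1.63 and embryos by 2.06, each with an exact permutation p of 0.1 (0.15 adjusted over 3 pairs), the smallest that 3 libraries against 3 allow. Embryos were lower than oocytes by 0.43, which was within the spread between libraries (log2 difference -0.43, exact permutation p = 0.4). Without oocyte library 2 this difference was -0.14, and without oocyte library 3 it was -0.73. The pairwise design cannot reach 0.05. No ratio of other names was computed for comparison. Of all names, 83% were called in sperm against oocytes and 86.2% in sperm against embryos. Whether a change of this size is particular to this pair was not tested.

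The division of miR-212 counts between its 2 names also differed between the groups. eca-miR-212_R+1 took 34.4% (95% Wilson interval 23.9 to 46.6), 37.5% (22.9 to 54.7) and 58.2% (46.3 to 69.3) of miR-212 counts in oocyte libraries 1, 2 and 3. In embryo libraries 1, 2 and 3 it took 51.4% (42.0 to 60.8), 52.3% (45.7 to 58.9) and 59.2% (52.9 to 65.3). In sperm libraries 1, 2 and 3 it took 78.8% (75.4 to 82.0), 84.3% (81.0 to 87.1) and 87.6% (85.1 to 89.7). These intervals cover counting error only, since PCR copies are not independent molecules. Sperm stood clear of both other groups, while oocyte library 3 fell among the embryos.

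The mean share was 43.4% ± 13.0 in oocytes, 54.3% ± 4.28 in embryos and 83.6% ± 4.42 in sperm (SD, n = 3 each). The 3 groups differed (two-sided exact permutation p = 0.0107, adjusted p = 0.0143 over the 2 ratios tested). Sperm exceeded oocytes by 40.2 and embryos by 29.2 percentage points (exact permutation p = 0.1 for each, 0.15 adjusted). Embryos exceeded oocytes by 11.0 percentage points, within the spread between libraries (exact permutation p = 0.3). Without oocyte library 3 this last difference was 18.4 percentage points, and without library 1 it was 6.47. All 36 count values of the 4 names were whole numbers (within 0.001), and no member shared its counts with another name.

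**Figure D3:**
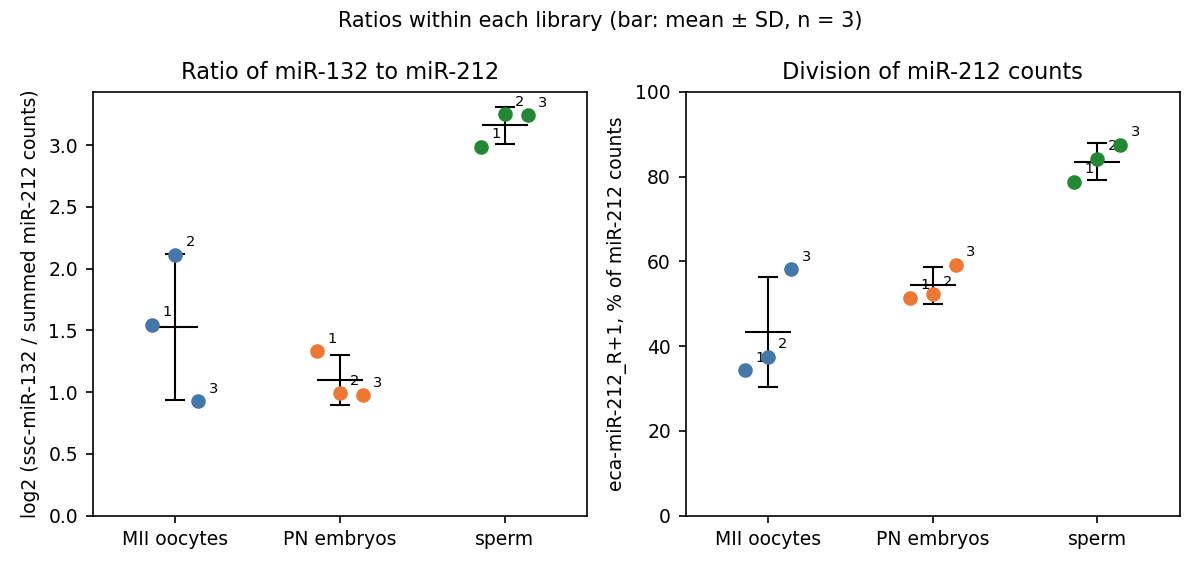
Left, log2 ratio of ssc-miR-132 counts to summed miR-212 counts; right, percent of miR-212 counts on eca-miR-212_R+1; points are libraries with their replicate number and bars are mean ± SD (n = 3). In both panels the sperm libraries lie above all others, at means of 3.16 and 83.6%, and MII oocytes overlap PN embryos.

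For comparison, 23 miRNAs had at least 2 names with distinct counts and at least 30 reads in each library. The share of their leading name, the one with the highest mean CPM over the 9 libraries, moved between oocytes and sperm by a median of 1.56 percentage points. In 14 of the 23 the leading name already took at least 98% in oocytes and had little room to rise, whereas for miR-212 it took 43.4%. The move of 40.2 points for miR-212 was the second largest, and between embryos and sperm its 29.2 points were the third largest. Sperm and oocyte libraries did not overlap in this share for 13 of the 23 miRNAs, and sperm and embryo libraries for 16. A lower share of the leading name in sperm than in oocytes, the other direction, was common among the 23. The largest falls were of miR-1260 (-41.9 percentage points), miR-125a (-30.6), miR-146a-5p (-18.9) and miR-9993a-3p (-18.1). After miR-212, the largest rise was of miR-92a-3p, by 6.30 percentage points.

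**Figure D4:**
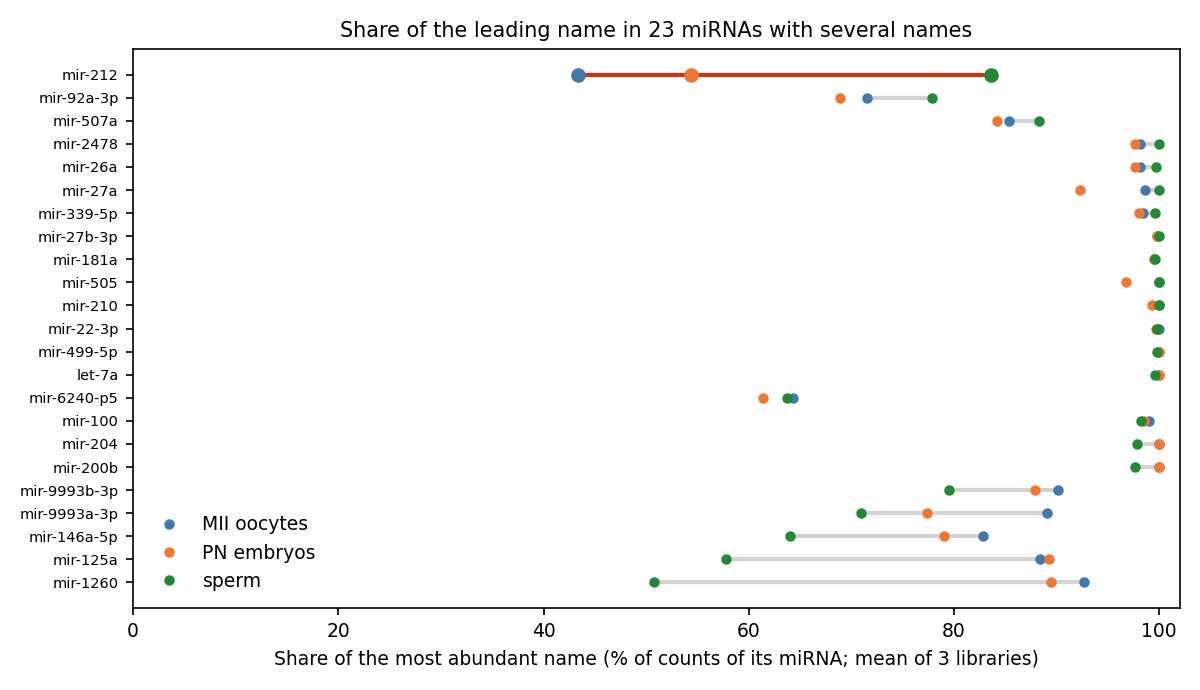
Share of the leading name, which has the highest mean CPM over the 9 libraries (percent of the counts of its miRNA, mean of 3 libraries), in MII oocytes, PN embryos and sperm for 23 miRNAs that carried several names; lines join MII oocytes and sperm, and miR-212 is drawn in red. The share for miR-212 runs from 43.4% to 83.6%, where the median move over the 23 miRNAs was 1.56 percentage points.

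The 5p arm of miR-132 is described without a test, since it was the name that led to this family. It took 3.09% (95% Wilson interval 1.43 to 6.58), 7.89% (4.57 to 13.3) and 0% of miR-132 counts in oocyte libraries 1, 2 and 3. In embryos it took 10.8%, 13.0% and 11.2%, and in sperm 12.8%, 14.2% and 13.8%. The interval of oocyte library 2 overlapped those of the embryo libraries, and the ranges of embryos and sperm overlapped.

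The change between oocytes and embryos was set beside the level in sperm. ssc-miR-132 was 150 CPM higher in embryos than in oocytes, which equals 5.13% of its sperm level. For pal-miR-132-5p_L+1R-2 the difference was 62.8 CPM, or 13.6% of its sperm level, and for the summed miR-212 names it was 120 CPM, or 36.7%. The male germ cell names summed to between 2036 and 2099 CPM in oocytes and between 2250 and 2455 CPM in embryos, a difference of 270 CPM or 0.177% of their sperm level. Of their 11 names, 6 were at 0 in oocytes and 5 in embryos. Single names moved both ways between the means of oocytes and embryos. The leading one, ssc-miR-34c, had a gain of -289 CPM, cfa-miR-34b_R+1 of -24.1 CPM and mmu-miR-34c-3p_L-1_1ss16AG of -6.83 CPM. For ocu-miR-34b-3p_1ss10CT the gain was 541 CPM, for cfa-miR-449a 39.9 CPM and for mdo-miR-34b-5p 8.39 CPM.

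The blood cell list also moved between oocytes and embryos, whereas the sums of the follicle somatic list overlapped between them. The 8 names of blood cell miRNAs (miR-451, miR-486, miR-223, miR-142, miR-144 and miR-150) summed to between 166 and 314 CPM in oocytes and to between 837 and 875 CPM in embryos, with 2 and 1 of them at 0. In sperm they summed to between 268 and 380 CPM, with 2 at 0. The 6 names of follicle somatic miRNAs (miR-202, miR-224, miR-383, miR-143 and miR-145) had a sum from 851 to 1360 CPM in oocytes, from 1074 to 1172 in embryos and from 703 to 772 in sperm. Most of the sperm sum was cfa-miR-383, at a mean of 686 CPM. The other names of this list had lower means in sperm than in oocytes. None of these 6 was at 0 in all libraries of oocytes or of embryos, and 1 was at 0 in all sperm libraries. The part of sperm, blood or cumulus cell RNA in the levels of miR-132 and miR-212 was not tested.

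miR-132 and miR-212 were set beside other miRNAs known from the settings in which the pair has been studied. Of the follicle miRNAs with miR-21 added, 7 names were tested, and 0 were called by edgeR in embryos against oocytes, with 1 at an unadjusted p under 0.05 and 0 called by DESeq2. There 12.9% of all names were called, and the median log2 fold change was 0.18 for the list and 0.08 for all names. Against oocytes, 1 was called higher in sperm and 6 lower, where 83% of all names were called, 42.2% higher and 40.7% lower. The median was -3.39, against 0 for all names. Against embryos 1 was higher and 5 were lower, where 86.2% of all names were called, 38.8% higher and 47.4% lower. The median was -3.99, against -0.52 for all names. Without regard to direction, the numbers called in the contrasts with sperm were near those of all names, but the calls were mostly lower. The higher name was cfa-miR-383, at 686 ± 46.5 CPM in sperm and 93.1 ± 16.9 CPM in oocytes. ssc-miR-21-5p_R+1, also induced by luteinizing hormone in granulosa cells, was at 77842 ± 5913, 83579 ± 970 and 23683 ± 157 CPM in oocytes, embryos and sperm (SD, n = 3 each). It was thus lower in sperm, the opposite of ssc-miR-132. ssc-miR-202-5p, ssc-miR-143-3p_R+1, ssc-miR-224_R+1 and ssc-miR-145-5p_R-1 were at 745, 89.2, 38.0 and 11.0 CPM in oocytes and at 15.1, 32.5, 0.961 and 0.961 CPM in sperm.

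Of the miRNAs known from brain (miR-9, miR-124, miR-128, miR-137, miR-138, miR-153 and miR-219), 8 names were tested. In sperm against oocytes 4 were called higher and 4 lower, beside 83% of all names called, 42.2% higher and 40.7% lower. The median log2 fold change was 0.60, against 0 for all names. Against embryos 5 were called higher in sperm and 3 lower, beside 86.2% of all names called, 38.8% higher and 47.4% lower. The median was 5.62, against -0.52 for all names. In embryos against oocytes 0 were called higher and 2 lower, beside 12.9% of all names called, 11.2% higher and 1.7% lower. The median was -0.11, against 0.08 for all names. The names higher in sperm than in oocytes were the 3 of miR-9, of which a pair had proportional counts, and 1 of miR-153. ssc-miR-9-2 was at 716 ± 201 CPM in oocytes, 292 ± 43.3 CPM in embryos and 7402 ± 99.1 CPM in sperm, and ssc-miR-153_R+2 was listed in sperm alone, at 17.8 ± 3.19 CPM (SD, n = 3). ssc-miR-128 was lower in sperm, at 6609 ± 443 CPM against 67416 ± 4571 CPM in oocytes, and cfa-miR-138b_R+1_1ss19TG was listed at 0 there. In embryos the lower names were ssc-miR-9-2 and ssc-miR-124a_R-2, the latter listed at 0 in embryos and at 53.2 ± 15.0 CPM in oocytes (SD, n = 3). ssc-miR-137_L-1, at 4.55 CPM in sperm, was not tested, and miR-219 had no name in the table.

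Names that most resembled the members were taken by the Pearson correlation of log2(CPM + 1) over the 9 libraries, among 500 distinct rows with a mean of at least 10 CPM. The 9 points fall into 3 groups of unlike depth, so these values describe likeness of the group levels and carry no test. For ssc-miR-132 they were ssc-miR-99a-5p_R+1, ocu-miR-34b-3p_1ss10CT, ssc-miR-151-5p, ssc-miR-425-5p and cfa-let-7b, with r between 0.997 and 0.999. Their steps differed in size: ssc-miR-99a-5p_R+1 went from 3796 CPM in oocytes to 4686 CPM in embryos and 17495 CPM in sperm, and ssc-miR-425-5p from 111 to 269 and 20091 CPM. For eca-miR-212_R+1, the miR-212 name with the higher mean CPM over the 9 libraries though not in oocytes, they were ssc-miR-2320-3p_L+1R+1, ocu-miR-129-3p, ssc-miR-181a_R-1, ssc-miR-769-5p and oga-miR-100_R+2. Here r was lower, between 0.908 and 0.978. Of these, ssc-miR-181a_R-1 had the highest level, at 919, 1513 and 2403 CPM in oocytes, embryos and sperm.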

How the data were processed

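Small RNA of 9 libraries was sequenced. The authors ligated adapters, reverse transcribed, amplified by PCR and cut the products from a gel. Estimated counts (expected counts) per small RNA name, marked raw in the header, were deposited, and 19.8% of values above 0 were not whole. Per the labels the build was Sscrofa11.1, and the aligner and miRNA caller are not given in the sources used here. The table had 0 unmapped sample columns. Rows of the same name were summed (1420 rows, 1313 names) and counts were rounded.

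All names were fitted in edgeR 4.0.16 (R 4.3.3) and tested by quasi-likelihood F-tests (TMM, filterByExpr by group, all 9 libraries, group as factor), which kept 587 names. q values are Benjamini-Hochberg adjusted within a contrast, and SE were derived from the F statistic. Ratios within libraries were compared with exact permutation tests in Python 3.11.15. The members, gene lists and tests were chosen with earlier results of these data known. The planned share of the leading miR-132 name was void, since only 1 name without an arm exists. Names in the text were the 4 members, the 5 most correlated names for the leading miR-132 and miR-212 names, and the most abundant name of each listed miRNA. Other named miRNAs were chosen after their values were seen. Alternatives were other scalings and filters, DESeq2 1.42.0, the replicate block, summed isomiRs, fits without each library and, added after the data were seen, thinning to equal depth. Chi-square per degree of freedom between replicate libraries was from 2.20 to 12.7, above sampling noise. The p-values measure the spread between these libraries, which may be technical.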

Additional observations from a re-analysis of the deposited data

How the results depend on the processing

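Depth limited the MII oocyte values most, where pal-miR-132-5p_L+1R-2 rested on 18 counts in all. Of the 4 members, 2 were called in PN embryos against MII oocytes. This became 1 with DESeq2 size factors, no filter, at least 10 counts in 3 libraries, only the groups compared fitted, the DESeq2 Wald test, isomiR rows summed or equal depth, and ran from 1 to 2 when each library was left out. The name lost was eca-miR-212_R+1, whose log2 fold change lay at the threshold of the call. Leaving out any library other than MII oocyte library 3 ended its call (log2 fold change 0.71 to 1.10), and without MII oocyte library 3 it was 1.62 and called. Same-numbered libraries of different groups deviated with mean correlations between -0.0903 and 0.0188, so the numbers were not taken to pair them; with the replicate number as a block 1 member was called.

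The log2 fold change of ssc-miR-212 changed sign with isomiR rows summed, to 1.18 in sperm against MII oocytes and 0.45 against PN embryos, because both miR-212 names then form a single row. That of eca-miR-212_R+1 in sperm against PN embryos changed sign to -0.10 with totals that left out ssc-miR-205_R+1. In sperm against PN embryos, ssc-miR-212 lost its call without PN embryo library 3 (-0.99), sperm library 2 (-0.96) or sperm library 3 (-0.97), and with DESeq2 size factors, no filter or the DESeq2 Wald test (-0.95 to -0.94). eca-miR-212_R+1 gained one, at 1.04 to 1.23, without MII oocyte library 2 or 3, PN embryo library 3 or sperm library 1 or 2, and at 1.03 to 1.12 with those settings or at least 10 counts in 3 libraries. Over 12 fold changes and 240 settings, 203 kept direction and call, 23 lost the call, 11 gained it and 3 changed sign. With pig names only, sperm exceeded MII oocytes in the log2 ratio of miR-132 to miR-212 by 3.43 and PN embryos by 3.56, since eca-miR-212_R+1 is then left out. The 3-group exact permutation p of the ratio ran from 0.00357 to 0.025 without each library and was 0.0286 with pig names only. The ratio with pal-miR-132-5p_L+1R-2 included is given without a test, since the level of that name chose the family. Sperm then exceeded MII oocytes by 1.79 and PN embryos by 2.09, and the difference of PN embryos from MII oocytes was -0.31. The 3-group exact permutation p of the miR-212 share ran from 0.00357 to 0.0179 without each library. Under the block, exact sign-flip p was 0.25 to 0.5 for the ratio, where 0.25 is the smallest possible. Shares with pig names only could not be computed.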
